A study of Mus musculus with 24 samples.

Results

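RNA recovered in a pulldown with a miR-29b mimic was compared directly with RNA recovered with a scrambled mimic in NIH3T3, a mouse embryonic fibroblast line. The comparison used 6 of the 24 libraries of the series, namely replicates 1 to 3 of the miR-29b pulldown and replicates 1 to 3 of the scrambled pulldown. These were chosen by their column names in the deposited count table, and header names in the authors' table term them the lysed set and replicate 4 the intact set. Both groups share the cell line, the mimic dose of 10 nM, medium added after 24 h and harvest 8 h later, and each library was made from 5 ng of RNA. Both mimics carried 3-cyanovinylcarbazole, a nucleoside that light can crosslink to the opposite strand. The other libraries were 6 lysed-set inputs, 4 intact-set libraries and 8 libraries of cytoplasmic and nuclear fractions. The labels do not state that libraries of a group are separate cultures; p-values here rest on the spread between libraries, which may be technical.

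MicroRNAs guide Argonaute proteins to mRNAs by pairing of the seed, a short stretch near the 5′ end of the microRNA, mostly with sites in the 3′ untranslated region. Recruited TNRC6 proteins then bring deadenylases, and the mRNA is repressed or degraded. In fibroblasts the miR-29 family is known for its collagen and other extracellular matrix targets, and outside the matrix for Mcl1 and the DNA methylation enzymes.

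The mature members of the family are shown because the site classes below rest on their shared seed. They were taken from RefSeq (GRCm38.p6), and capitals mark the seed, bases 2 to 8 from the 5′ end.
mmu-miR-29a-3p: uAGCACCAucugaaaucgguua
mmu-miR-29b-3p: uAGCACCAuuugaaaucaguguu
mmu-miR-29c-3p: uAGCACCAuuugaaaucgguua
The seed was identical in all 3, and they differ only in the bases that follow it. Mature miR-29b comes from 2 loci, Mir29b-1 on chromosome 6 (31063025 to 31063047, minus strand) and Mir29b-2 on chromosome 1 (195037091 to 195037113, plus strand). The sequence of the modified mimic itself was not used here.

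The listed counts per library were 21726775, 25650608 and 41046886 in replicates 1 to 3 of the miR-29b pulldown, and 7409157, 26310947 and 27665275 in the scrambled pulldown. Each library detected 13377 to 13516 genes. The third replicate of each group stood close to a weighted sum of the other libraries of its group. In the miR-29b pulldown, replicate 3 deviated from such a sum (52.8% from replicate 1) by a median of 2.58% over 6865 genes, where counting error alone gives 2.31%, while replicates 1 and 2 deviated from each other by 26.6%. It lay between them in 746 of the 748 genes over 2-fold apart. In the scrambled pulldown, replicate 3 deviated from the sum by 3.89% (counting error 2.71%) and from replicate 2 by 5.47%, while replicates 1 and 2 deviated by 37.6%. The labels do not say that any library was pooled. Results are therefore also given from replicates 1 and 2 of each group alone. The first principal component held 75.6% of the variance and separated the mimics, and the second (17.2%) set replicate 1 of the scrambled pulldown, the shallowest library, apart at 56.3 from its group at −38.5 and −25.3.

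Recovery differed between the mimics across much of the transcriptome. Of 12547 genes tested, 6234 (49.7%) passed the test, of which 3108 (24.8%) were higher and 3126 (24.9%) lower in the miR-29b pulldown (edgeR quasi-likelihood test, adjusted p under 0.05, n = 3 per group). The higher genes changed by more: 2165 rose and 1511 fell at least 2-fold, 887 rose and 217 fell at least 4-fold, and 338 rose and 29 fell at least 8-fold. The libraries of both mimics did not overlap in 3560 genes that were higher (28.4%) and 3842 that were lower (30.6%). With replicates 1 and 2 alone, 1766 of 12486 genes (14.1%) were higher and 728 (5.83%) lower, of which 1766 and 717 were among the genes above. The count of lower genes was 1651 without replicate 3 of the miR-29b pulldown and 2031 without replicate 3 of the scrambled pulldown. The balance of the directions depends on scaling. The median of all genes was −0.12 on the log2 scale, upper-quartile factors moved it to −0.41 (2438 higher, 4582 lower), and the library totals that the authors deposited moved it to 0.27 (3221 higher, 683 lower). Listed counts made up 83.4% to 87.3% of those totals with miR-29b but 48.9% to 72.2% with the scrambled mimic.

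**Figure D1:**
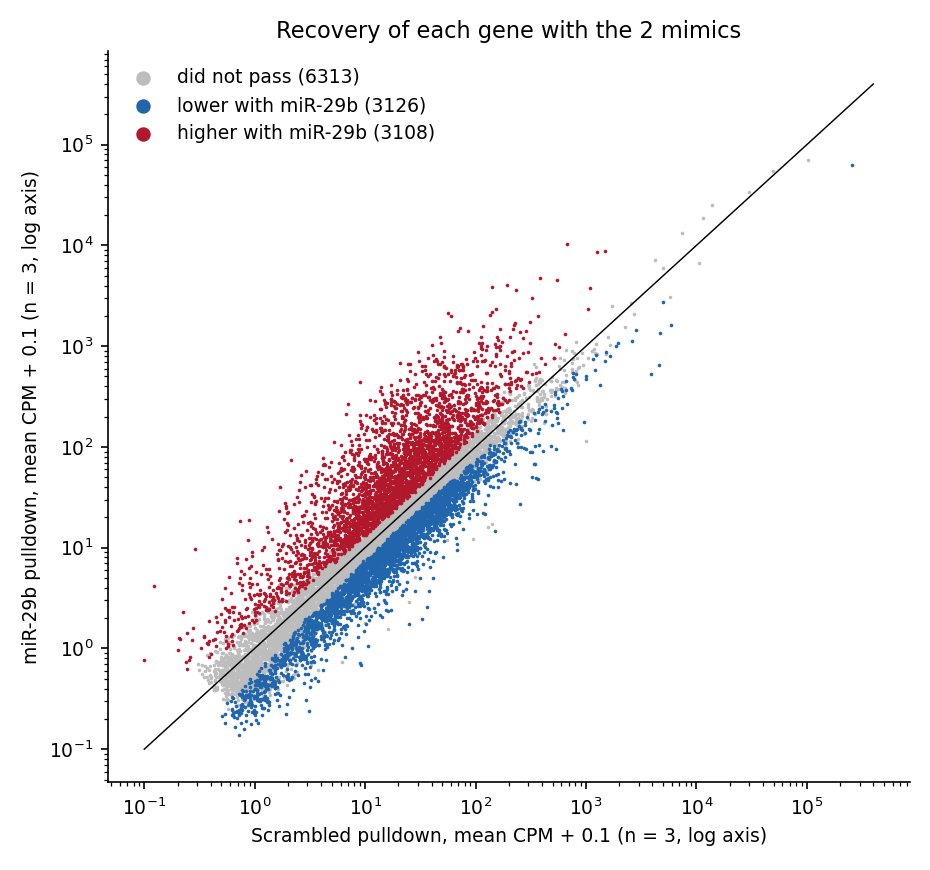
Mean level of each tested gene in the scrambled pulldown (x axis) and in the miR-29b pulldown (y axis), in CPM plus 0.1 on log axes, n = 3 per group. The line marks equal levels; the 3108 higher genes spread far above it, and the 3126 lower genes lie in a narrower band below it, with Gm26924 at the far right.

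Genes that rose took up a larger part of the miR-29b pulldown than of the scrambled pulldown. Together they held 33.5%, 50.8% and 41.6% of the listed counts in replicates 1 to 3 with miR-29b, against 9.23%, 11.8% and 11.5% with the scrambled mimic. The groups did not overlap, but the rule that chose these genes used the same counts. Levels below are in CPM, counts scaled to library size with edgeR's TMM factors. The median gene that rose stood at 51.5 CPM with miR-29b and 18.1 CPM with the scrambled mimic, and the median gene that fell at 8.75 and 17.2 CPM.

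The largest rise among the genes named by rule was in Nrep (ENSMUSG00000042834; chromosome 18, 33437019 to 33464365, GRCm38), a neuronal regeneration related protein. Its level was 236, 638.6 and 444 CPM in replicates 1 to 3 of the miR-29b pulldown and 3.55, 12.4 and 10.6 CPM in the scrambled pulldown. The 3 miR-29b libraries all lay far above the scrambled ones, with replicate 2 highest. The log2 change was 5.58 ± 0.57 (SE, n = 3 per group; edgeR adjusted p = 0.000235).

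Mcl1 (ENSMUSG00000038612; chromosome 3, 95656944 to 95663179), an anti-apoptotic Bcl2 family member, stood at 1649, 2343 and 1988 CPM with miR-29b and at 65.9, 57.8 and 55.5 CPM with the scrambled mimic. Neither group varied much, and the rise was 33.4-fold (log2 5.06 ± 0.24 SE, edgeR adjusted p = 4.08e-05; 0.000353 in replicates 1 and 2 alone). Efna2, an ephrin ligand, rose 35.0-fold, from 1.78, 2.65 and 1.70 CPM to 63.3, 87.2 and 69.9 CPM. Eif4h (ENSMUSG00000040731; chromosome 5, 134619872 to 134639409), a cofactor of the translation initiation helicase, rose 27.5-fold, from 130.5, 146.2 and 146.0 CPM to 2895, 4859 and 3892 CPM. In each of these genes the lowest miR-29b library was many fold above the highest scrambled library.

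Acvr2a, an activin receptor, reached 479, 1270 and 853.6 CPM with miR-29b from 22.6, 37.2 and 30.2 CPM. Ppp1r3d, a glycogen-targeting subunit of protein phosphatase 1, Ammecr1l, the iron exporter Slc40a1, the zinc finger gene Zfp322a and the nucleosome assembly family gene Nap1l3 rose by 5.23, 5.02, 4.99, 4.86 and 4.78 on the log2 scale. H3f3c and Gm9726 (log2 5.28 and 5.57) are also among the 12 largest rises, but H3f3c is nearly identical to other H3.3 genes, so how reads were split between copies is uncertain. Outside the rule, Wisp1, a secreted matricellular protein whose symbol has since been changed, was singled out after its values were seen. It stood at 1626, 2658 and 2178 CPM against 35.2, 70.3 and 64.2 CPM (log2 5.25 ± 0.37 SE, edgeR adjusted p = 6.68e-05).

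**Figure D2:**
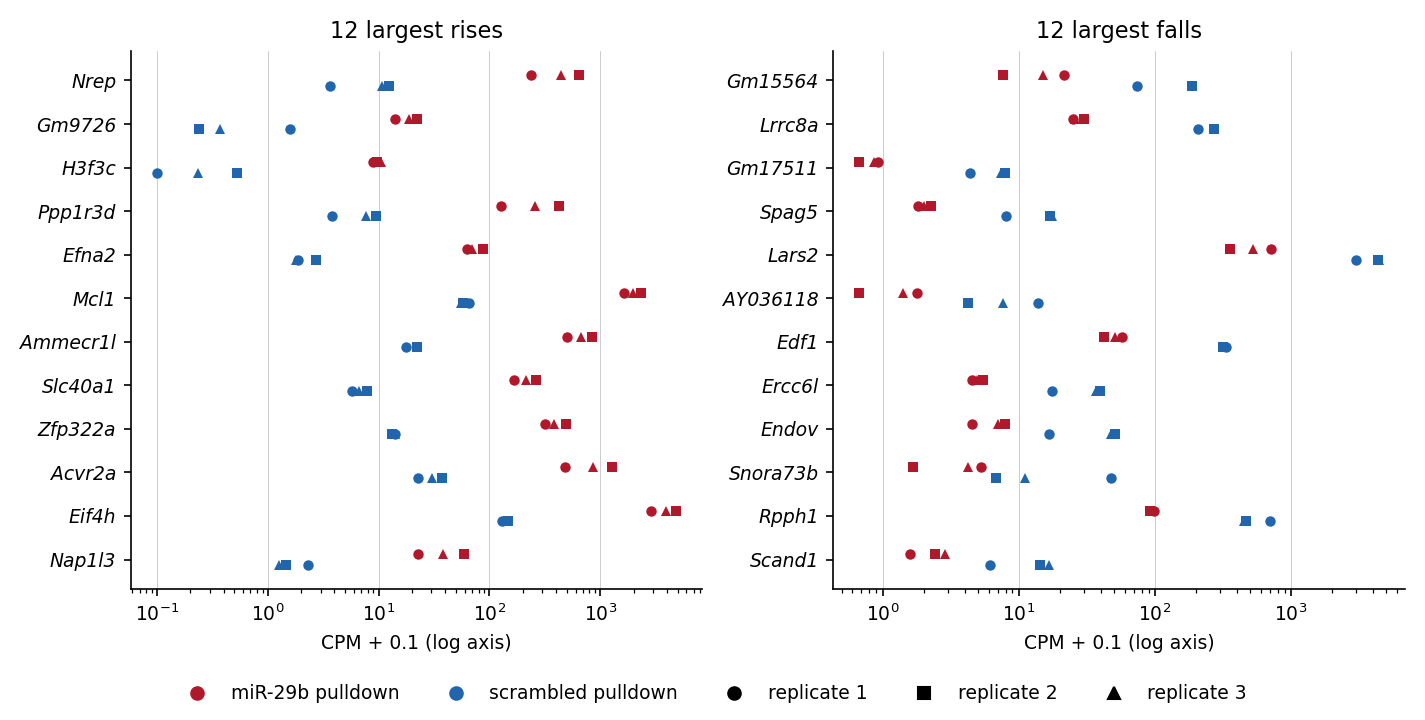
Level of the 12 largest rises (left) and the 12 largest falls (right) named by rule, in CPM plus 0.1 on a log axis, with a point for each of the 3 replicates of each pulldown. The libraries of the mimics do not overlap in any of the 24 genes, as the rule requires, and replicate 2 of the miR-29b pulldown is the highest point in most rises.

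Rises were larger in replicate 2 of the miR-29b pulldown than in replicate 1. Among the 2165 genes that rose at least 2-fold, it was above replicate 1 in 1928 (89.0%), with a median log2 ratio of 0.54, against 57.5% of all genes tested. Among the 1511 genes that fell at least 2-fold it was above replicate 1 in 762 (50.4%).

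Genes with a predicted miR-29 site were mostly recovered more with miR-29b. The authors' deposited table marks genes with a predicted site, with an 8mer site (the longest of the common seed match types) and with a context score past a cut-off; the origin of the marks is read only from the column names. Of 502 protein-coding genes with any mark, 402 rose and 14 fell, with a median log2 change of 1.97, whereas of 10813 protein-coding genes without a mark 2599 rose and 2804 fell, with a median of −0.11. Genes that carried both an 8mer and a context score mark had a median of 2.71, and 95 of 106 rose and 1 fell. The medians were 2.49 for an 8mer without the context mark (40 of 42 rose, 0 fell) and 2.56 for the context mark without an 8mer (53 of 59 rose, 1 fell). The other marked genes had a median of 1.52, and 214 of 295 rose and 12 fell. With replicates 1 and 2 alone, 328 of the marked genes rose and 2 fell, and 1380 and 626 of those without a mark did. The count of marked genes that fell was between 8 (without replicate 3 of either pulldown) and 24 (without replicate 1 of the scrambled pulldown), and 9 without replicate 2 of the scrambled pulldown. The median of the marked genes was 1.68 with upper-quartile factors and 2.34 with the authors' library totals.

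Marked genes held 10.2%, 16.7% and 13.2% of the listed counts in replicates 1 to 3 of the miR-29b pulldown and 1.86%, 2.79% and 2.67% in the scrambled pulldown. The ranges were far apart. Most genes that rose carried no mark (2599 of the 3001 protein-coding genes that rose), as did 10813 of the 11315 protein-coding genes tested. In the inputs, 135 of the marked genes were lower and 37 higher with miR-29b (median log2 change −0.13), beside 13.3% and 11.0% of all genes.

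**Figure D3:**
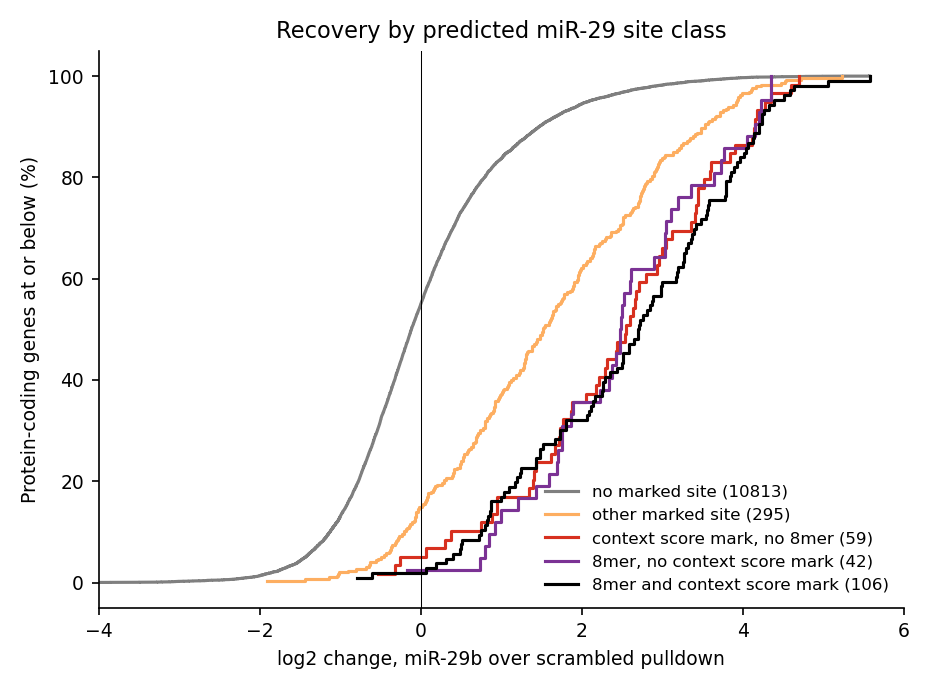
Cumulative share of protein-coding genes (y axis, %) at or below each log2 change of the miR-29b over the scrambled pulldown (x axis), by class of predicted site in the authors' table, with the number of genes in brackets. The curve of genes without a mark crosses 0 near its middle; the 3 classes with an 8mer or a context score mark lie close together at the right, and the other marked genes lie between.

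Reported miR-29 targets were mostly recovered more with miR-29b. Members of this and the other lists were chosen with earlier results of these data known, so their counts are descriptions. Of 71 gene entries tested from a list of 80 (Hdac4 stands under 2 identifiers), 61 rose and 2 fell, with a median of 2.73, against 24.8% and 24.9% of all genes. Their summed level was 50630, 76050 and 63000 CPM with miR-29b and 7226, 8655 and 8409 CPM with the scrambled mimic. Hbp1, a transcriptional repressor, and Klf4, a Kruppel-like transcription factor, rose by 4.70 and 4.53 on the log2 scale. Ccnd2, a G1 cyclin, was at 8474, 8887 and 8616 CPM against 1522, 1124 and 1150 CPM. The 2 that fell were Akt2, a kinase of the PI3K pathway (log2 −0.96), and the ligand Tgfb3 (log2 −0.49); neither passed in replicates 1 and 2 alone, where 56 of the list rose and 0 fell. Leaving out a library left 1 of these 2 falls, except that both stayed without replicate 1 of the scrambled pulldown. Vegfa, Smad3, Psme4, Nid1, Rcc2, Grn, Fstl1 and Igf1 did not pass.

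Most collagens rose, with fibrillar and basement membrane chains among them. Of 17 collagen genes, 13 rose and 2 fell, with a median of 2.80, beside 24.8% and 24.9% of all genes. In replicates 1 and 2, 12 rose and 0 fell. Col1a1 (ENSMUSG00000001506; chromosome 11, 94936224 to 94953042), a chain of fibrillar type I collagen, was at 2705, 6791 and 4774 CPM with miR-29b and at 269.4, 442.5 and 440.6 CPM with the scrambled mimic (log2 3.63 ± 0.41 SE, edgeR adjusted p = 0.000357). The miR-29b libraries varied by more than 2-fold and still lay above every scrambled one. Col4a5 and Col8a1 rose by 4.20 and 4.13, and Col5a2, Col1a2 and Col3a1 by 4.06, 3.03 and 2.98. The 2 that fell, Col18a1 (log2 −1.08) and Col12a1 (log2 −0.98), did not pass in replicates 1 and 2 alone.

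Lox (ENSMUSG00000024529; chromosome 18, 52516060 to 52529867), the oxidase that cross-links collagen and elastin, showed the largest rise in CPM among the genes that passed the test. It was chosen after the values were seen, and CPM is not per transcript length. It was at 9102, 11560 and 10360 CPM with miR-29b and at 511.2, 778 and 738.7 CPM with the scrambled mimic, 15.3-fold apart (log2 3.94 ± 0.28 SE, edgeR adjusted p = 6.83e-05). Of 23 elastic fibre and cross-linking genes 8 rose, among them Mfap5 (log2 3.58), Sparc (2.44) and fibrillin 1, Fbn1 (2.17), and 7 fell, among them the latent TGF-beta binding protein Ltbp4 (−1.69) and the prolyl hydroxylases P4ha3 (−1.47) and P4ha1 (−1.24). Their median was −0.09. Of 12 basement membrane genes 7 rose, with Pxdn, a peroxidase that cross-links collagen IV, at 3.84, and 3 fell, namely perlecan, Hspg2 (−1.91), Lamb1 (−1.54) and Lama5 (−1.40). Of 24 matrix proteases and inhibitors 8 rose and 2 fell. Adam19 rose most (4.22), and the gelatinase Mmp2 rose by 2.73. Over all genes 24.8% rose and 24.9% fell, and the shares of the elastic fibre and cross-linking list were 34.8% and 30.4%.

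Some enzymes of DNA methylation and demethylation were recovered more. Of 17 genes in the list 7 rose, 3 fell and 7 did not pass, with a median log2 change of 0.12, beside 24.8% of all genes that rose and 24.9% that fell; in replicates 1 and 2, 7 rose and 1 fell. The 3 Tet dioxygenases, which oxidise 5-methylcytosine, all rose: Tet3 by 4.40, Tet2 by 4.35 and Tet1 by 3.48. Tet3 (ENSMUSG00000034832; chromosome 6, 83362373 to 83457208) stood at 623.1, 2443 and 1496 CPM with miR-29b and at 31.8, 92.9 and 90.2 CPM with the scrambled mimic. The de novo methyltransferases Dnmt3a and Dnmt3b rose by 3.44 and 2.74, and the glycosylase Tdg by 3.10. The maintenance methyltransferase Dnmt1 did not pass (log2 −0.27 ± 0.30 SE, edgeR adjusted p = 0.486), and its cofactor Uhrf1 fell by 1.85 on the log2 scale.

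Many apoptosis and p53 response genes were also recovered more. The reference is 24.8% of all genes that rose and 24.9% that fell. Of 14 Bcl2 family genes 8 rose and 2 fell; beside Mcl1, these were the BH3-only genes Bbc3 (3.91), Bmf (3.59) and Bcl2l11 (2.35) and the effectors Bak1 (3.17) and Bax (1.75). Bbc3 was at 47.1, 87.5 and 65.1 CPM against 2.96, 5.45 and 4.36 CPM. The genes that fell were Bad (−0.73) and Bid (−0.47), and 7 rose and 0 fell in replicates 1 and 2. Bcl2 itself, at 2.80, 5.17 and 4.00 CPM against 3.26, 3.01 and 2.93 CPM, did not pass, and its groups overlapped. Of 22 p53 targets 12 rose and 1 fell, and the list shares Bbc3 and Bax with the one before. With upper-quartile factors 7 fell. In the inputs 8 of the list were higher with miR-29b and 0 lower, with a median of 0.21, beside 11.0% of all genes that were higher; the part of the inputs in these rises was not tested. Cdkn1a, the cyclin-dependent kinase inhibitor p21, rose from 33.6, 27.9 and 30.4 CPM to 246.3, 349.4 and 301 CPM (log2 3.29 ± 0.20 SE, edgeR adjusted p = 4.51e-05), and its input was also higher with miR-29b (log2 0.53, edgeR adjusted p = 0.000619). Mdm2 did not pass (log2 0.12 ± 0.15 SE).

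Some RNAs of the microRNA silencing machinery were themselves recovered more. Of 23 Argonaute, TNRC6 and microRNA processing genes 10 rose and 2 fell (6 and 0 in replicates 1 and 2). Over all genes 24.8% rose and 24.9% fell. The scaffold Tnrc6a rose from 64.7, 83.7 and 82.3 CPM to 322.2, 852.7 and 575 CPM (log2 2.92 ± 0.36 SE, edgeR adjusted p = 0.000529), Ago1 by 2.01 and Dicer1, which cuts precursors to mature microRNAs, by 1.60. Ago2 did not pass (log2 0.95 ± 0.36 SE, edgeR adjusted p = 0.0612). Drosha and Dgcr8, the nuclear processing complex, fell by 0.91 and 0.75. Of 28 genes of the deadenylases and mRNA decay 12 rose and 6 fell, with 8 and 0 in replicates 1 and 2. Zfp36l1 and Zfp36, proteins that bind AU-rich elements, rose by 3.93 and 3.91, the decapping cofactor Edc3 by 3.81, and the deadenylases Pan2, Cnot6l and Cnot7 by 3.32, 2.62 and 1.77. The 6 that fell, among them Pabpc4 (−0.99) and the exonuclease Xrn1 (−0.63), were 3 without replicate 2 of the miR-29b pulldown, 2 without its replicate 3 and 3 without replicate 3 of the scrambled pulldown.

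In TGF-beta signalling 14 of 28 genes rose and 5 fell (11 and 0 in replicates 1 and 2), beside 24.8% and 24.9% of all genes. Among ligands Tgfb2 rose by 2.81 while Tgfb1 and Tgfb3 fell by 0.72 and 0.49. Among receptors Acvr2a, Acvr2b and Bmpr1a rose (4.84, 1.69 and 1.48) and Tgfbr2 fell by 0.86. The inhibitory Smad7 went from 7.55, 8.70 and 9.63 CPM to 104.1, 136.3 and 118.6 CPM (log2 3.78 ± 0.19 SE, edgeR adjusted p = 4.08e-05), and Smad5, Smad1 and Smad4 rose by 1.41, 1.28 and 1.26. The 5 genes that fell were 1 without replicate 3 of the miR-29b pulldown and 2 without replicate 2 of the scrambled pulldown.

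In PDGF, IGF and PI3K-Akt signalling 11 of 27 genes rose and 9 fell. For this and the next lists the reference is 24.8% of all genes that rose and 24.9% that fell. The PDGF ligands Pdgfc and Pdgfa (2.89 and 2.71), both PDGF receptors (Pdgfrb 1.76, Pdgfra 1.64) and the transcription factors Foxo3 and Foxo1 (2.71 and 1.70) rose, whereas the receptors Igf1r and Insr (−1.52 and −0.92), the kinase Mtor (−1.38) and Akt2 fell. The 9 that fell were 5 without replicate 3 of the miR-29b pulldown and without replicate 2 or replicate 3 of the scrambled pulldown. Of 18 G1 cyclin and Cdk genes 8 rose, including the cyclin Ccne2 (3.92), the retinoblastoma gene Rb1 (2.82) and the kinase Cdk6 (1.46), and 3 fell. Of 13 Kruppel-like factors 7 rose and 2 fell. Of 25 cholesterol genes 9 rose and 2 fell; Hmgcs1, a synthase of the pathway, and Insig1, a sterol sensor, rose by 3.90 and 3.21. Without replicate 1 of the scrambled pulldown, 4 matrix protease genes, 3 p53 targets, 5 microRNA processing genes, 5 G1 genes and 5 cholesterol genes fell; leaving out another library moved the falls of these lists and of the Bcl2 family by at most 1. Across these lists the median of all genes, −0.12, is the reference, and the medians of the matrix protease, DNA methylation, deadenylase and cholesterol lists, 0.26, 0.12, 0.22 and 0.19, turn below 0 with upper-quartile factors.

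**Figure D4:**
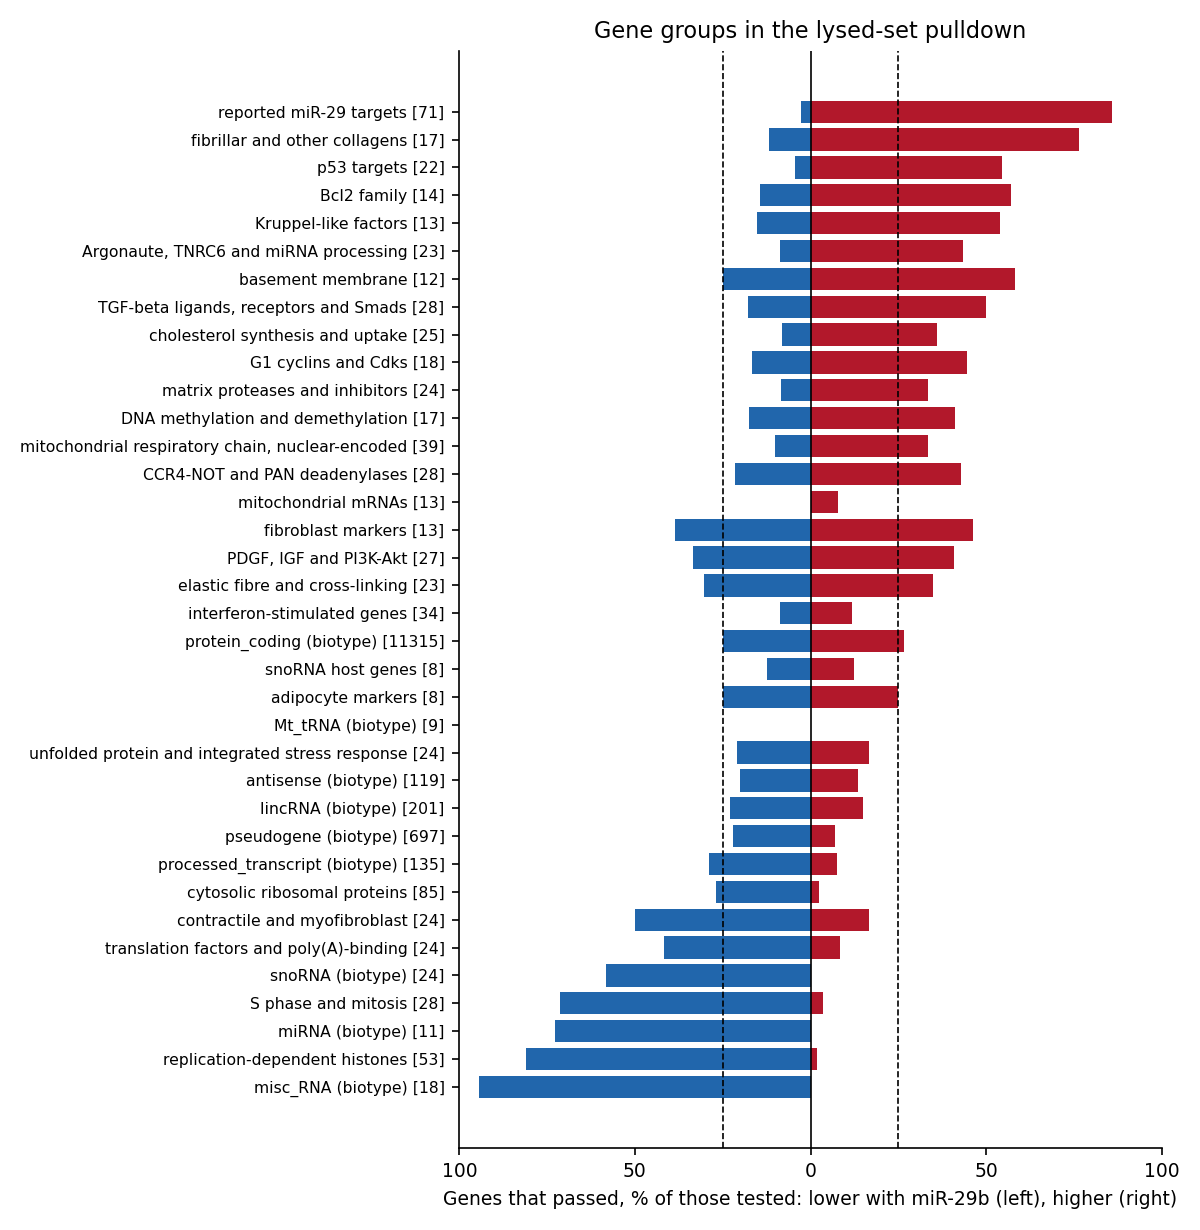
Share of tested genes in each gene list or biotype (number tested in brackets) that were lower (left, blue) or higher (right, red) in the miR-29b pulldown, in %, at an edgeR adjusted p under 0.05, n = 3 per group. The dashed lines mark the shares over all genes, 24.9% lower and 24.8% higher; reported targets and collagens extend furthest to the right, and misc_RNA genes and histones furthest to the left.

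Among falls, Lrrc8a (ENSMUSG00000007476; chromosome 2, 30237769 to 30263790), a subunit of the volume-regulated anion channel, was clear in every library. It was at 24.97, 30.2 and 25.7 CPM with miR-29b and at 207.6, 270.2 and 273.6 CPM with the scrambled mimic, with a log2 change of −3.22 ± 0.19 (SE, n = 3 per group; edgeR adjusted p = 4.17e-05). The inputs of Lrrc8a did not differ beyond their spread (20.1 ± 2.23 and 18.8 ± 0.956 CPM, SD, n = 3 each; edgeR adjusted p = 0.438). Edf1, a transcriptional coactivator, fell from 334.8, 317.3 and 322.2 CPM to 57.4, 42.1 and 50.9 CPM, although its input was higher with miR-29b (log2 0.24, edgeR adjusted p = 0.0113). Lars2, the mitochondrial leucyl-tRNA synthetase, was at 708.3, 358.7 and 526 CPM against 3003, 4336 and 4411 CPM. Among the genes named by rule, Gm15564 had the largest fall (log2 −3.36 ± 0.49 SE), and Gm17511, the spindle gene Spag5, AY036118, the helicase gene Ercc6l, the endonuclease gene Endov, the small nucleolar RNA Snora73b, the RNase P RNA Rpph1 and Scand1 complete the 12 largest, between −3.20 and −2.49. The calls of Snora73b and Rpph1 were lost in the fit of all 16 whole-cell libraries, and that of Snora73b also without any 1 replicate of the miR-29b pulldown or replicate 1 of the scrambled pulldown.

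Replication-dependent histone mRNAs, which end in a stem-loop in place of a poly(A) tail, had the largest share of falls among the lists of at least 10 genes. Of 53 genes 43 fell and 1 rose, with a median of −2.45, beside 24.9% and 24.8% of all genes. In replicates 1 and 2, 37 fell and 0 rose, against 5.83% of all genes that fell. Their summed level was 286.8, 505.2 and 448.8 CPM with miR-29b and 617, 1322 and 1368 CPM with the scrambled mimic. Hist2h3c2, an H3 gene, was at 8.05, 13.6 and 10.5 CPM against 55.6, 78.5 and 68.9 CPM (log2 −2.66 ± 0.23 SE, edgeR adjusted p = 0.000130). In the inputs the median of the list was −0.44, and 5 of its genes were lower, beside 13.3% of all genes. With the authors' library totals 33 of the list fell, and 13 in the fit of all 16 libraries. Histone genes are near-identical copies, and how reads were split between them is uncertain.

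Genes of S phase and mitosis were lower as well, and here the inputs moved with them. Of 28 genes 20 fell and 1 rose, with a median of −1.17 (10 and 1 in replicates 1 and 2), beside 24.9% and 24.8% of all genes. In the inputs 20 of the list were lower with miR-29b and 0 higher (median −0.37), where 13.3% of all genes were lower. Mki67, the proliferation marker Ki-67, was at 17.0, 24.8 and 22.5 CPM against 32.0, 146.7 and 130.5 CPM, so that scrambled replicate 1 stood nearest to the miR-29b libraries. Cenpf, Ttk and the checkpoint gene Bub1b fell by 2.44, 2.44 and 2.21. Cyclin A2, Ccna2, was the exception and rose by 1.95, from 21.2, 62.8 and 58.0 CPM to 99.2, 274 and 181.5 CPM. The count of falls was 4 with the authors' library totals and 11 in the fit of all 16 libraries. The part of the input difference in the pulldown difference was not tested.

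Of 24 contractile genes 12 fell and 4 rose, beside 24.9% of all genes that fell and 24.8% that rose. Tpm2 fell from 126.7, 132.9 and 128.7 CPM to 34.3, 33.9 and 32.6 CPM (log2 −1.95 ± 0.14 SE, edgeR adjusted p = 6.68e-05), while its paralog Tpm1 rose from 297.5, 285.1 and 283.7 CPM to 1409, 1396 and 1419 CPM (log2 2.29 ± 0.17 SE, edgeR adjusted p = 7.84e-05). Both tropomyosins were tight within each group and moved in opposite directions. Vinculin, Vcl, rose by 3.30, and filamin Flna and the actinin Actn1 fell by 1.42 and 0.82. The 12 falls were 5 without replicate 3 of the miR-29b pulldown and 6 without replicate 2 or replicate 3 of the scrambled pulldown; 3 fell in replicates 1 and 2. Translation factors fell in 10 of 24 and rose in 2, with 6 falls without replicate 2 or replicate 3 of the miR-29b pulldown or replicate 3 of the scrambled pulldown, and 1 in replicates 1 and 2. With the authors' library totals 3 contractile genes fell and 5 rose, and 0 translation factors fell and 3 rose. Cytosolic ribosomal protein genes fell in 23 of 85 and rose in 2, near the 24.9% of all genes, although their median was −0.51. Their falls were 12 and 8 without replicates 2 and 3 of the miR-29b pulldown, 15 without replicate 3 of the scrambled pulldown, 41 with upper-quartile factors and 4 with the authors' library totals. Rps19 fell by 1.72 and Rpl23a rose by 1.77.

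With the main scaling, most noncoding biotypes had more falls than rises. With the authors' library totals the balance turned in several: 70 pseudogenes rose and 69 fell, against 36 and 20 lincRNA genes, 21 and 7 antisense genes and 13 and 10 processed transcripts. Of the classes the table gives, 17 of 18 misc_RNA genes, 14 of 24 snoRNA genes and 8 of 11 miRNA genes fell and 0 rose, with medians of −2.50, −1.52 and −2.04. Over all genes 24.9% fell and 24.8% rose. In replicates 1 and 2 the falls were 15, 11 and 5, beside 5.83% of all genes. Rn7sk, the RNA that restrains the elongation factor P-TEFb, was at 225.3, 128.4 and 177.9 CPM with miR-29b and at 1455, 639.2 and 805.7 CPM with the scrambled mimic (log2 −2.45 ± 0.37 SE, edgeR adjusted p = 0.00129). Rpph1 was at 98.4, 91.9 and 95.7 CPM against 705.2, 464.3 and 452.7 CPM. Scrambled replicate 1 was the highest library of both. The 17 falls of misc_RNA genes were 7 and 8 without replicates 2 and 3 of the miR-29b pulldown and 6 in the fit of all 16 libraries, and the 14 of snoRNA genes were 2 in that fit.

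Pseudogenes fell in 153 of 697 and rose in 49 (median −0.58), and processed transcripts fell in 39 of 135 and rose in 10. Genes of the lincRNA class fell in 46 of 201 and rose in 30, and antisense genes fell in 24 of 119 and rose in 16. In this order the shares that fell, 22.0%, 28.9%, 22.9% and 20.2%, were near the 24.9% of all genes. The shares that rose, 7.03%, 7.41%, 14.9% and 13.4%, were below the 24.8% of all genes. Without replicate 3 of the miR-29b pulldown the falls were 86, 16, 24 and 10 in these 4 classes, 96, 21, 28 and 14 without its replicate 2, and 94, 25, 25 and 14 without replicate 3 of the scrambled pulldown. Without replicate 2 of the scrambled pulldown, falls of processed transcripts, lincRNA and antisense genes were 22, 30 and 15. Without replicate 1 of the scrambled pulldown 83 pseudogenes and 17 processed transcripts rose, and without its replicate 3 the 16 antisense rises were 9. The counting strand is not given in the sources used here, so reads of an antisense gene and of its partner cannot be told apart.

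Single long noncoding RNAs moved in both directions. Tug1, a long noncoding RNA, rose from 23.4, 50.5 and 48.3 CPM to 624.5, 1025 and 818.9 CPM (log2 4.33 ± 0.37 SE, edgeR adjusted p = 0.000117). Snhg6, a snoRNA host gene, rose by 3.62, while Snhg5 fell by 1.14. The nuclear RNA Malat1 fell from 6967, 3397 and 3693 CPM to 1778, 944.4 and 1359 CPM (log2 −1.78 ± 0.37 SE, edgeR adjusted p = 0.00586), and Neat1, a nuclear paraspeckle RNA, by 0.95 (not past the threshold in replicates 1 and 2, edgeR adjusted p = 0.171). Malat1 and Neat1 were also lower in the inputs (log2 −0.37 and −0.36).

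Gm26924, a gene of the lincRNA class, took 35.9%, 18.3% and 21.1% of the listed counts in the scrambled pulldown and 8.26%, 4.06% and 6.33% in the miR-29b pulldown. It was singled out after its values were seen. The groups did not overlap (log2 −2.0 ± 0.49 SE, edgeR adjusted p = 0.0120), but the difference did not pass in replicates 1 and 2 (edgeR adjusted p = 0.0637). In the inputs Gm26924 had means of 232800 CPM with miR-29b and 228900 CPM with the scrambled mimic. Which transcripts the reads counted for Gm26924 come from was not tested. Protein-coding genes held 74.9%, 85.8% and 79.9% of the listed counts in the miR-29b pulldown and 49.4%, 60.6% and 59.6% in the scrambled pulldown. Mitochondrially encoded genes, at 28.8%, 16.3% and 22.9% against 14.5%, 29.3% and 25.9%, overlapped between the groups.

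The inputs of the same set were compared to see what differed before the pulldown. Of 12084 genes 1331 (11.0%) were higher and 1612 (13.3%) lower with miR-29b (edgeR adjusted p under 0.05), but only 59 (0.488%) differed at least 2-fold. Input replicate 3 also lay near a weighted sum of replicates 1 and 2. It deviated by 3.26% with miR-29b (counting error 2.49%) and 3.37% with the scrambled mimic (2.47%), while replicates 1 and 2 deviated by 7.13% and 6.67%. The inputs were not tested from replicates 1 and 2 alone. The median input change was −0.01 among genes higher in the pulldown and −0.04 among those lower. Across 11936 genes the changes in pulldown and input correlated weakly (Pearson r = 0.029, a description, since genes are not independent). The labels do not say whether inputs and pulldowns came from the same cultures. For Mcl1 the inputs stood at 79.5 ± 2.86 and 83.8 ± 7.24 CPM, and for Eif4h at 196.2 ± 4.23 and 196.5 ± 10.7 CPM (SD, n = 3 each).

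Epithelial, endothelial, leukocyte and muscle markers were near 0. Summed over the markers tested, epithelial genes (2) lay between 0.593 and 4.29 CPM over the 6 libraries, the endothelial gene Vwf between 0.536 and 7.40, leukocyte genes (3) between 4.46 and 8.73 and muscle genes (2) between 0.766 and 6.07. Krt8, Vwf, Itgam and the muscle genes Acta1 and Des fell at these levels. The call of Vwf was lost without replicate 2 or replicate 3 of the miR-29b pulldown or replicate 1 of the scrambled pulldown, and that of Des without any 1 replicate of the miR-29b pulldown. Fibroblast markers were present. Of 13, 6 rose and 5 fell, beside 24.8% and 24.9% of all genes. The rises were at least 1.64 on the log2 scale in all but Ddr2 and included 3 collagens, and Thy1 (−1.51) led the falls. Without replicate 2 or replicate 3 of the miR-29b pulldown 3 fell.

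Adipocyte markers were not near 0. Summed over the 8 genes, they stood at 4112, 4074 and 4025 CPM with miR-29b and at 1010, 1558 and 1448 CPM with the scrambled mimic. Most of this was Lpl, the lipoprotein lipase gene, at 3801, 3787 and 3736 CPM against 686, 1331 and 1216 CPM, and Lpl is also in the reported target list. Lpl and Cidec rose by 1.81 and 0.78 on the log2 scale, Plin1 and Cebpa fell by 2.64 and 1.88, and 1 gene rose without replicate 3 of either pulldown. The 4 neural markers tested summed to 20.7, 21.8 and 20.7 CPM against 13.3, 11.25 and 12.1 CPM, and of these Stmn2 rose (log2 0.99). The part of adipocyte or neural RNA in the results was not tested.

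Libraries outside the comparison were then read, with 1 library per mimic and no test. In the intact set, 2783 of 3100 genes that had risen (89.8%) had a ratio of miR-29b over scrambled above 0, against 47.5% of all genes, and 2698 of 3109 that had fallen (86.8%) were below 0. Of the genes called from replicates 1 and 2 alone, 1718 of 1764 higher genes (97.4%) and 651 of 724 lower genes (89.9%) kept their sign. The scrambled library of the intact set deviated from lysed replicate 3 of its group by only 4.96% (2.84% from counting error), while the miR-29b library deviated from its lysed replicates by 32.2% to 36.8%. The labels do not say whether these scrambled libraries share material.

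In the cytoplasm 1988 of 2975 higher genes (66.8%) had a ratio above 0 and 1942 of 2798 lower genes (69.4%) a ratio below 0. In the nucleus 1980 of 2956 higher genes (67.0%) were above 0, but with a median log2 ratio of only 0.13, and 1618 of 2772 lower genes (58.4%) were below 0. About as many genes lay above 0 as below it over all genes (49.6% and 49.96% above 0). Mcl1 had log2 ratios of 4.87, 2.53 and 1.47 in the intact set, cytoplasm and nucleus, and Lrrc8a of −4.02, −4.74 and −0.44. Among genes with a marked site, 431 of 501 were above 0 in the intact set, 309 of 478 in the cytoplasm and 370 of 480 in the nucleus.

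The falls of noncoding and histone RNAs were not seen in all of these libraries. The median log2 ratio of histones was −0.28 in the intact set and 1.98 in the cytoplasm, where 46 of 47 were above 0. In the nucleus it was −0.36, with 10 of 42 above 0. Genes of S phase and mitosis had medians of 0.03 in the intact set, 0.59 in the cytoplasm and −0.07 in the nucleus. For snoRNA genes 19 of 23, and for misc_RNA genes 9 of 18, had a ratio above 0 in the intact set. For miRNA genes the intact median was −2.42, with 2 of 11 above 0. Of misc_RNA genes 9 of 13 were above 0 in the cytoplasm and 2 of 11 in the nucleus, and of miRNA genes 4 of 7 and 0 of 6. Rn7sk was at −2.45 in the lysed set, 0.58 in the intact set, 1.54 in the cytoplasm and −0.86 in the nucleus. Whether these sets differ was not tested.

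**Figure D5:**
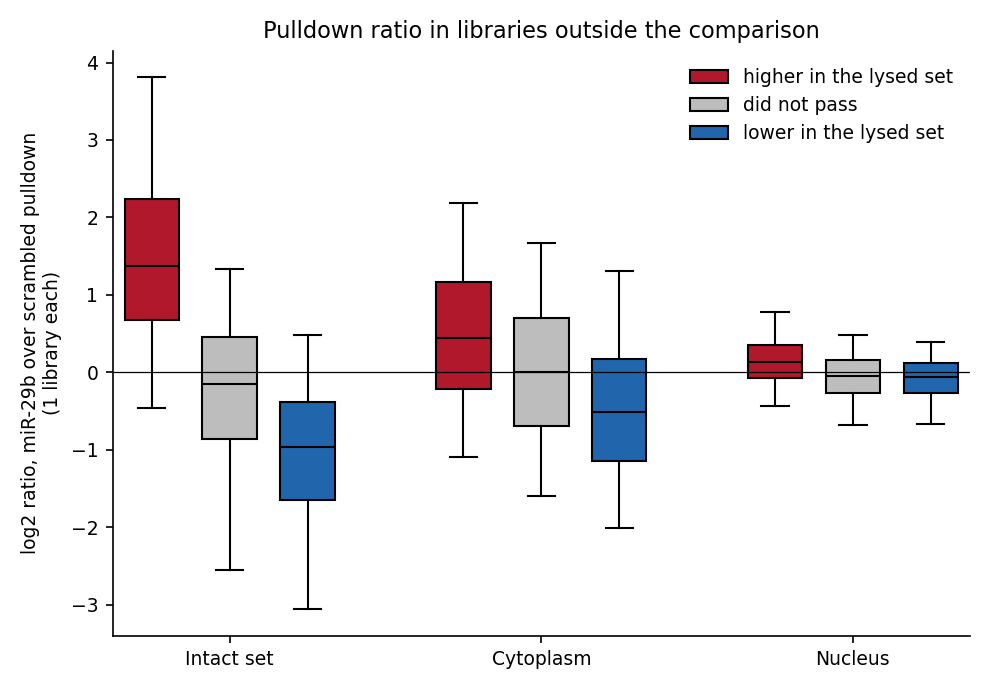
Log2 ratio of the miR-29b over the scrambled pulldown (y axis) in the intact set, cytoplasm and nucleus, with 1 library per mimic each, for genes higher, lower or not called in the lysed set. Boxes give the median and quartiles over genes and whiskers the 5th to 95th percentile; the medians of the higher and lower genes were 1.38 and −0.97 in the intact set, 0.44 and −0.51 in the cytoplasm, and 0.13 and −0.06 in the nucleus.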

How the data were processed

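Reads were aligned with STAR 2.3.0 to mm10, per the submitters' processing notes; the sources used here do not give the counting tool, annotation or strand setting. The authors deposited whole-number counts per gene. Deposited CPM values equal the count plus 1 over a library total, as found from the values, and gave the authors' totals for 1 alternative. The authors' deposited PE score, whose formula is not stated, was not analysed; their site marks were used as given. The count table had 14052 lines for 13534 genes; 518 repeat lines were dropped. The 6 libraries were tested with edgeR 4.0.16 (filterByExpr, TMM, quasi-likelihood, two-sided, Benjamini-Hochberg, threshold 0.05); 987 genes fell under the filter and the common dispersion was 0.0504. The test was tried on simulated counts of independent libraries. On those counts it recovered 51% of 2-fold and 99% of 4-fold changes and called 0.0817% of unchanged genes. Whether these shares hold for the data, where 49.7% of genes passed and library composition differed between the mimics, was not tested. The closeness of replicate 3 to a sum of the other libraries was not simulated. Ratios of single libraries used a prior count of 5. Replicate numbers were not taken as pairs, since the labels state no pairing. Deviations of same-numbered libraries correlated at 0.378, 0.355 and 0.057, and those of differently numbered libraries at −0.375 to 0.302. Named genes were the 12 largest changes per direction with non-overlapping libraries, at least 5 CPM in the higher group and an official symbol, up to 2 genes with the smallest p per biotype and per list, and a short fixed list. Members and lists were chosen with earlier results of these data known, so list counts are descriptions. Alternatives were RLE, upper-quartile and authors' totals scaling, DESeq2 1.42.0, other filters, a replicate block, fits of 12 or 16 libraries, replicates 1 and 2 only, and leaving out each library. Some genes of the lists are not reported here.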

Additional observations from a re-analysis of the deposited data

Results flagged for a closer look

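Oasl2, an interferon-stimulated gene, stood out because the lysed and intact sets point in opposite directions. In the lysed set it was at 998, 1200 and 1101 CPM with miR-29b and at 207.9, 153.7 and 163.6 CPM with the scrambled mimic, a log2 change of 2.65 ± 0.21 (SE, n = 3 per group; edgeR adjusted p = 8.41e-05). In the intact set, with 1 library per mimic, its log2 ratio was −1.63. Oasl2 was not alone in this. Of 34 interferon-stimulated genes only Trim25 had an intact ratio above 0, so Rsad2 and Irf7, also higher in the lysed set, did not keep their direction. The difference between the sets was not tested.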

How the results depend on the processing

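The count of genes higher with miR-29b (3108) stayed within 1.5 times under every scaling, tool, filter and model tried except replicates 1 and 2 alone (1766), and ranged from 2434 to 3739 when a library was left out. The count of lower genes (3126) was 683 with the authors' library totals, 728 with replicates 1 and 2 alone and 1511 at a 2-fold minimum, and ranged from 1651 to 3610 when a library was left out. With the replicate number as a block 3478 genes were higher and 3635 lower; the numbers share no stated culture or day. Higher genes were 49.9% of all calls, 34.7% with upper-quartile factors and 82.5% with the authors' totals. Of 109 named genes no log2 change reversed its sign under these alternatives while called, 20 lost their call under at least 1 of them and 3 gained one (Cd68, Krt19 and mt-Atp8). Precision is limited by 3 libraries a group, of which replicate 3 lay close to a sum of the others.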

Other observations

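Interferon-stimulated genes, which answer to viral RNA and interferon, differed widely between the sets. In the lysed set 4 of 34 were higher and 3 lower with miR-29b (edgeR adjusted p under 0.05), beside 24.8% and 24.9% of all genes. The median log2 change was −0.27, and 24 were lower in the lysed inputs, where 13.3% of all genes were lower. The higher ones were Rsad2 (log2 4.50), Trim25 (3.96), Oasl2 (2.65) and Irf7 (1.04), and without replicate 1 of the scrambled pulldown 8 were higher and 5 lower. With replicate 3 of the miR-29b pulldown left out 1 was lower. Trim25, a ubiquitin ligase of RNA sensing, was at 3037, 4131 and 3589 CPM against 257.1, 214.9 and 221 CPM. In the intact set the median log2 ratio of the list was −3.32 and 1 of 34 was above 0, with Trim25 at 2.88. In the cytoplasm and the nucleus the medians were −0.94 and −0.37. The difference between sets was not tested.

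Nuclear-encoded respiratory chain genes moved in both directions: 13 of 39 rose, 4 fell and 22 did not pass, beside 24.8% and 24.9% of all genes, with a median of 0.07. With upper-quartile factors 9 rose and 11 fell and the median was −0.22; with the authors' library totals 14 rose and 0 fell. In replicates 1 and 2, 4 rose and 0 fell. Atp5c1, a subunit of ATP synthase, was at 890.6, 918.1 and 908.9 CPM with miR-29b and at 193, 150.5 and 156.8 CPM with the scrambled mimic (log2 2.44 ± 0.19 SE, edgeR adjusted p = 8.00e-05), while Atp5d, of the same enzyme, fell by 1.26 on the log2 scale. The 4 falls were 1 without replicate 2 or replicate 3 of the miR-29b pulldown and 8 without replicate 2 of the scrambled pulldown. Of 13 mitochondrially encoded mRNAs 1 passed, mt-Co3 (log2 1.01), and it did not pass in replicates 1 and 2. Leaving out miR-29b replicate 2 let 5 of these mRNAs pass; without replicate 1 of the scrambled pulldown 2, and without any other library 0.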
